A study of Mus musculus with 5 samples.

Results

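The Bcl2 family, represented by 10 genes, was described in RNA labelled as from transplanted mouse colorectal cancer (CRC) tumours. The genes were taken from the count table by symbol and comprise 3 survival genes (Bcl2, Bcl2l1 and Mcl1), 2 pore-forming death genes (Bax and Bak1) and 5 genes of BH3-only death proteins (Bcl2l11, Bbc3, Pmaip1, Bid and Bad). These 10 genes are 10 of 54113 named entries in the table and 10 of 16133 genes with enough counts to be tested. The tumours had grown from MC38 cells, a mouse colon adenocarcinoma line, in C57BL/6 mice. The mice were housed for 2 weeks at 30 °C, near thermoneutrality for mice (3 tumours), or at 4 °C (2 tumours). The labels carry no age, sex or batch of the animals. Both groups share the one tumour line and the one strain, so that results refer to RNA labelled as this transplant model. Nothing in the labels ties a tumour at 30 °C to one at 4 °C.

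Proteins of the Bcl2 family decide at the outer membrane of the mitochondrion whether a cell survives a stress. Bax and Bak form pores that release cytochrome c, survival proteins such as Bcl2, Bcl-xL and Mcl1 hold them back, and BH3-only proteins relay signals of stress by binding the survival proteins or by activating Bax and Bak. In blood and lymphoid tissue the survival proteins are known for different cells, with Bcl2 for resting lymphocytes, Bcl-xL for maturing red cells and platelets, and Mcl1 for many lineages including neutrophils and stem cells. Much of the family is controlled after transcription, by protein turnover, cleavage and phosphorylation, which RNA counts do not measure.

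Library totals on named genes ran from 16191708 to 20320525 counts. Pancreatic acinar transcripts, summed over 24 genes, took 27.1% of the counts of 30 °C replicate 2 (Wilson 95% confidence interval 27.1% to 27.1%), 0.268% in 4 °C replicate 2 and at most 0.00828% in the other 3 libraries. All 10 markers of the B cell list, all 10 of the erythroblast list and all 3 transcription factors of the splenic mesenchyme list (Tlx1, Nkx2-5 and Nkx2-3) lay above 3 counts in every library, whereas this held for 6 of 11 epithelial and colon carcinoma markers. Tlx1 had between 173 and 563 counts per library. In CPM (counts after scaling the library total to 1000000), B cell markers summed to between 1423 and 4286 and erythroblast markers to between 3175 and 5202. Epithelial markers summed to between 19.4 and 133. Within this list, Krt19, a keratin of simple epithelia, had 0 counts in 30 °C replicate 3 and 4 °C replicate 1. Other members were present in every library, with between 128 and 200 counts for Epcam, 59 and 966 for Krt8 and 42 and 403 for Cdh1. The labelled tissue is tumour, and the counts do not show which cells carried the transcripts described here. The word tumour therefore stands for a library with this label, and how much of each library came from carcinoma cells was not tested. In such bulk RNA, fewer cells of a type and less RNA per cell cannot be told apart.

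None of the 10 genes differed between 4 °C and 30 °C beyond the spread between tumours (0 of 10 at an adjusted p under 0.05 in the quasi-likelihood test of edgeR). The same test called 0% of all 16133 genes. At an unadjusted p under 0.05, 0 of the 10 genes passed, against a background of 6.76% of genes (1090 of 16133), with 2.58% higher and 4.17% lower at 4 °C. Leaving out 30 °C replicate 3 took Bcl2l1 past that unadjusted threshold, so that 1 of the 10 passed, beside 1477 genes of the whole table. None of the 10 passed after adjustment. Leaving out 4 °C replicate 1, which leaves 1 tumour at 4 °C, took the log2 difference of Bax to 0.76. DESeq2 also called 0 of the 10, against a background of 1.01% (118 of 11697 genes with an adjusted p). Of the 10 fitted differences, 5 were above 0 and 5 below, beside 50.7% above 0 among all genes. They ran from -0.25 for Bcl2l1 to 0.42 for Bax on the log2 scale (4 °C minus 30 °C). Their median was 0.04, beside 0.01 for all genes. The median size of the difference, without its sign, was 0.18 for the 10 genes and 0.24 for all genes. No difference of the 10 exceeded 1 on this scale, as it did for 5.58% of all genes.

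These values limit what could be seen. For 8 of the 10 genes the fitted difference was smaller than its own standard error. The 95% confidence interval lay within a halving and a doubling for 5 of the 10 (Mcl1, Bak1, Bcl2l11, Bbc3 and Bid), and for Bcl2, Bcl2l1, Bax, Pmaip1 and Bad it did not. With 3 tumours against 2, the p-values weigh each difference against a spread between tumours. For each gene, edgeR estimates this spread partly from its own values and partly from those of all genes tested. The intervals give the differences that the data leave possible and are not a limit of detection.

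**Figure D1:**
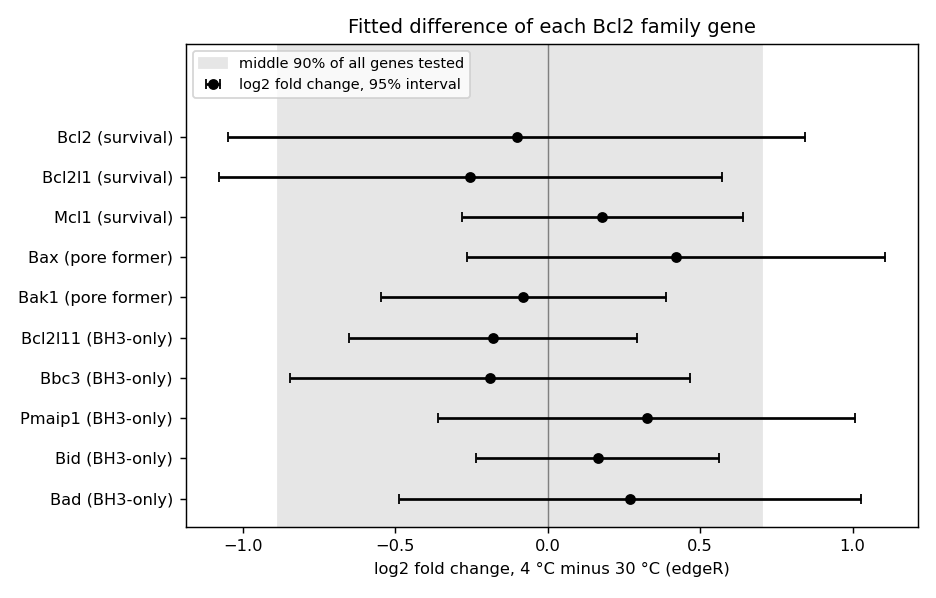
Log2 fold change (4 °C minus 30 °C, horizontal axis) of each of the 10 genes from edgeR, with bars for the 95% confidence interval and the middle 90% of all genes (-0.88 to 0.70) in grey. Every interval crosses 0, all 10 points lie in the grey band, and the widest interval, that of Bcl2, runs from -1.05 to 0.85.

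Levels in single tumours are given below as CPM on library sizes scaled by the TMM method of edgeR, in the order of replicates 1, 2 and 3 at 30 °C and replicates 1 and 2 at 4 °C. The scaling matters for 30 °C replicate 2. On library totals, 9 of the 10 genes were lowest in this acinar-rich library, and on the scaled values 4 of 10 were. The share of all genes lowest there was not computed. With that library left out, 0 of the 10 genes were called, and the differences ran from -0.26 for Bcl2 to 0.30 for Bax.

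Among the survival genes, Bcl2 varied most from tumour to tumour. Bcl2, which keeps lymphocytes alive (chromosome 1, 106538178 to 106714274, minus strand, GRCm38), was at 45.6, 51.7 and 100.4 scaled CPM at 30 °C and at 75.1 and 47.7 at 4 °C. The highest and the lowest of the 5 values both belonged to tumours at 30 °C, 2.20-fold apart, and the groups overlapped. The group means were 65.9 ± 30.0 (SD, n = 3) and 61.4 ± 19.4 (SD, n = 2). The fitted difference was -0.10 on the log2 scale (SE 0.39, 95% interval -1.05 to 0.85, edgeR adjusted p = 0.968). Its sign hung on single tumours, since it was 0.34 without 30 °C replicate 3 and 0.18 without 4 °C replicate 2.

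Bcl2l1, which encodes Bcl-xL (chromosome 2, 152780668 to 152831728, minus strand), was at 147, 149 and 69.9 scaled CPM at 30 °C and at 104 and 101 at 4 °C. Replicates 1 and 2 at 30 °C stood high and replicate 3 low, so that both tumours at 4 °C fell between them. The means were 122 ± 45.3 (SD, n = 3) and 102 ± 2.36 (SD, n = 2). The difference of -0.25 (SE 0.34, 95% interval -1.08 to 0.57, edgeR adjusted p = 0.912) was the lowest of the 10. Without 30 °C replicate 3 it was -0.53, with an edgeR adjusted p of 0.465.

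The tumours that were high in Bcl2 were not those high in Bcl2l1. Replicate 3 at 30 °C held the highest value of Bcl2 and the lowest of Bcl2l1. Cell type markers moved with this, on the same scaled CPM. The 10 erythroblast markers summed to 4840.4, 5785, 2922, 3059 and 3080 in the 5 libraries in the order above, with replicates 1 and 2 at 30 °C highest as for Bcl2l1. The 10 B cell markers summed to 1324, 1977, 3527, 3968 and 3294, with 30 °C replicate 3 and 4 °C replicate 1 highest as for Bcl2. 4 °C replicate 2 broke that likeness, with a B cell sum above those of 30 °C replicates 1 and 2 and a level of Bcl2 between theirs. The part of these cell types in the levels of Bcl2 and Bcl2l1 was not tested, and 5 libraries are too few for a correlation.

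Mcl1, which encodes a short-lived survival protein (chromosome 3, 95658788 to 95663176, plus strand), was at 444, 421 and 529 scaled CPM at 30 °C and at 560 and 492 at 4 °C. The highest of the 5 values was at 4 °C, but 30 °C replicate 3 lay between the tumours at 4 °C, so the groups overlapped. The means were 465 ± 56.5 (SD, n = 3) and 526 ± 48.7 (SD, n = 2), and the difference was 0.18 (SE 0.19, 95% interval -0.28 to 0.64, edgeR adjusted p = 0.885). It kept its sign whichever tumour was left out (0.08 to 0.28).

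**Figure D2:**
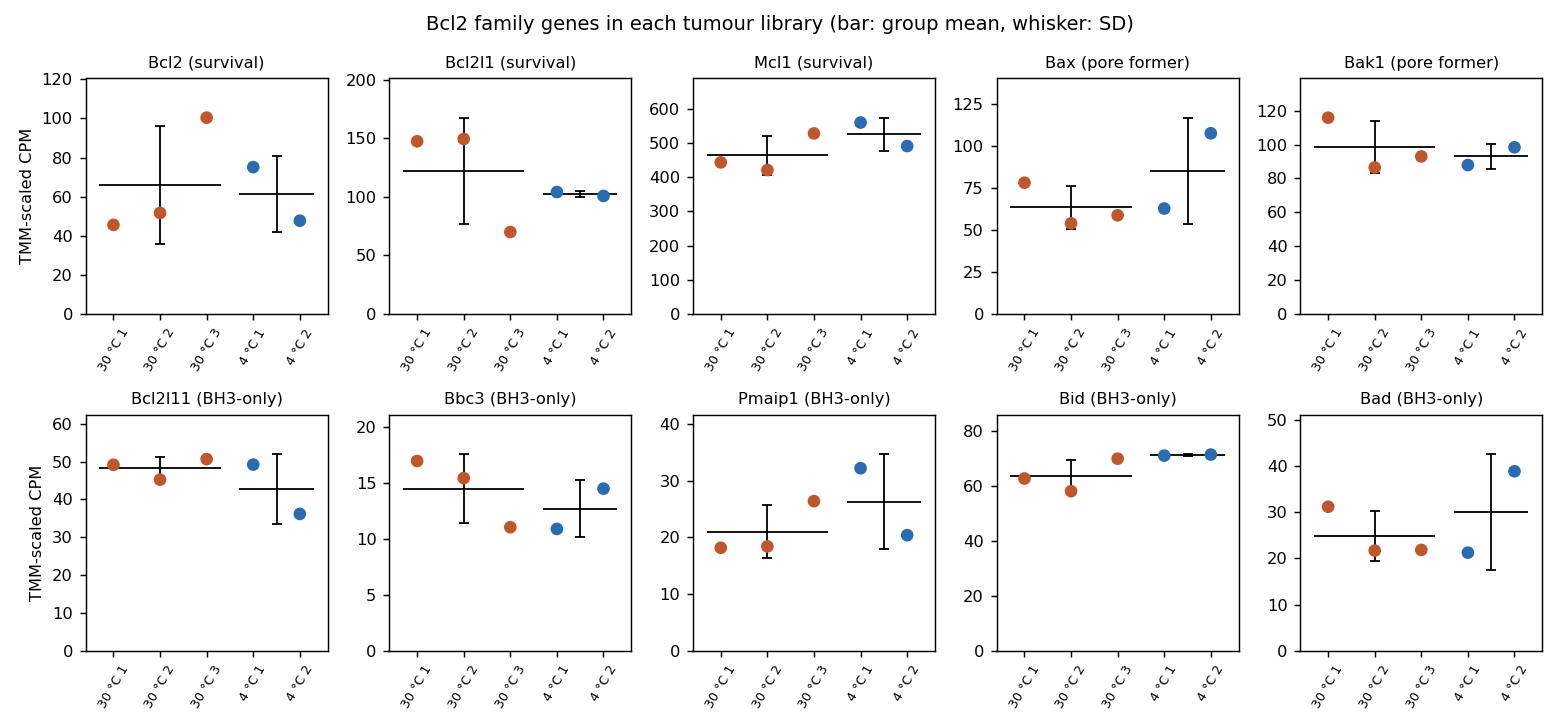
TMM-scaled CPM (vertical axis, from 0) of each of the 10 genes, one panel per gene and one point per tumour, red for 30 °C and blue for 4 °C, with the group mean as a bar and the SD as a whisker. The groups overlap for every gene but Bid, and the point of 30 °C replicate 3 is the highest for Bcl2 and the lowest for Bcl2l1.

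Of the pore-forming genes, Bax had the largest difference among the 10 and Bak1 the smallest. Bax (chromosome 7, 45461697 to 45466898, minus strand), whose product moves from the cytosol to the mitochondrion, was at 78.3, 54.0 and 58.9 scaled CPM at 30 °C and at 62.9 and 108 at 4 °C. One tumour at 4 °C, replicate 2, stood above all others, and the other lay within the range at 30 °C. The means were 63.7 ± 12.8 (SD, n = 3) and 85.3 ± 31.8 (SD, n = 2), and the difference was 0.42 (SE 0.28, 95% interval -0.27 to 1.11, edgeR adjusted p = 0.834). It was -0.035 without 4 °C replicate 2 and 0.76 without 4 °C replicate 1 (edgeR adjusted p = 0.625 in the latter).

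Bak1, whose product sits in the mitochondrial membrane (chromosome 17, 27019810 to 27029009, minus strand), was at 116, 86.5 and 93.0 scaled CPM at 30 °C and at 87.9 and 98.4 at 4 °C. Both tumours at 4 °C lay inside the range of the tumours at 30 °C. The means were 98.5 ± 15.4 (SD, n = 3) and 93.2 ± 7.43 (SD, n = 2), and the difference was -0.08 (SE 0.19, 95% interval -0.55 to 0.39, edgeR adjusted p = 0.951). Without 30 °C replicate 1 it was 0.054.

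The genes of the BH3-only proteins were split, with 3 fitted differences above 0 (Pmaip1, Bad and Bid) and 2 below (Bcl2l11 and Bbc3). Bid links death receptors to the mitochondrion, since caspase-8 cuts its product into the active form. Its levels (chromosome 6, 120891930 to 120916853, minus strand) were 62.6, 58.0 and 69.8 scaled CPM at 30 °C and 70.9 and 71.3 at 4 °C. It was the only one of the 10 genes whose groups did not overlap, beside 23.3% of all genes (3752 of 16133), and 12.2% with 4 °C above. The gap between the highest tumour at 30 °C and the lowest at 4 °C was narrow, and on library totals the groups overlapped (67.3, 42.7 and 78.7 CPM against 76.6 and 73.5). The means of the scaled values were 63.5 ± 5.96 (SD, n = 3) and 71.1 ± 0.265 (SD, n = 2), and the difference was 0.16 (SE 0.17, 95% interval -0.23 to 0.56, edgeR adjusted p = 0.877). Bid also had the narrowest range over the 5 tumours, 1.23-fold.

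Bcl2l11 encodes Bim, an activator of Bax and Bak with a main role in the death of lymphocytes. It was at 49.2, 45.3 and 50.7 scaled CPM at 30 °C and at 49.2 and 36.2 at 4 °C (chromosome 2, 128126038 to 128162547, plus strand). The low one was 4 °C replicate 2, and 4 °C replicate 1 lay among the tumours at 30 °C. The means were 48.4 ± 2.80 (SD, n = 3) and 42.7 ± 9.23 (SD, n = 2), and the difference of -0.18 (SE 0.20, 95% interval -0.65 to 0.29, edgeR adjusted p = 0.885) became 0.011 without that low tumour.

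Bbc3 and Pmaip1 encode Puma and Noxa, both known as targets of p53. Bbc3 (chromosome 7, 16308393 to 16318205, plus strand) was at 17.0, 15.4 and 11.05 scaled CPM at 30 °C and at 10.9 and 14.5 at 4 °C, with a difference of -0.19 (SE 0.27, 95% interval -0.85 to 0.47, edgeR adjusted p = 0.917). Pmaip1 on chromosome 18 was at 18.1, 18.4 and 26.4 scaled CPM at 30 °C and at 32.2 and 20.4 at 4 °C, with a difference of 0.32 (SE 0.28, 95% interval -0.36 to 1.01, edgeR adjusted p = 0.862). The order of the 5 tumours for one gene was the reverse of that for the other. 30 °C replicate 3 and 4 °C replicate 1 were the lowest tumours for Bbc3 and the highest for Pmaip1. Some steps were small, with 11.05 against 10.9 for Bbc3 and 18.1 against 18.4 for Pmaip1. The Poisson 95% interval reached 15.4% and 14.0% from the lowest count of Bbc3 and Pmaip1, so the full orders are not resolved. Without 4 °C replicate 1 the difference was 0.0034 for Bbc3 and -0.043 for Pmaip1. The 5 libraries had the same order for Bbc3 as for the sum of the 10 neutrophil markers, at 12575, 8529, 2884, 2470.4 and 3974 scaled CPM. All 10 lay above 3 counts in every library. Camp and Ly6g departed from this order, being higher in 30 °C replicate 2 than in 30 °C replicate 1 (640 against 516 and 22.7 against 18.1). Cxcr2 was higher in 30 °C replicate 3 than in 4 °C replicate 2 (39.1 against 33.5), and the other markers followed the sum. The part of neutrophils in the level of Bbc3 was not tested, and 5 libraries are too few for a correlation.

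Bad, whose product is held inactive by phosphorylation when growth factors are present (chromosome 19, 6941861 to 6951899, plus strand), was at 31.2, 21.7 and 21.8 scaled CPM at 30 °C and at 21.2 and 38.9 at 4 °C. The lowest and the highest tumour were the 2 at 4 °C. The means were 24.9 ± 5.44 (SD, n = 3) and 30.1 ± 12.5 (SD, n = 2), the difference was 0.27 (SE 0.31, 95% interval -0.49 to 1.03, edgeR adjusted p = 0.891), and without 4 °C replicate 2 it was -0.24.

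Counting error was smaller than the span of each gene over the 5 tumours. It was not smaller than every gap between 2 tumours, such as 69.8 against 70.9 scaled CPM for Bid. Each of the 10 genes had more than 100 counts in every library, from 188 for Bbc3 to 12105 for Mcl1. The exact Poisson 95% interval around the lowest count reached at most 2.77% from the count for Mcl1 and 15.4% for Bbc3. Such intervals describe counting error alone, as amplified reads carry no molecular tag here and need not stem from separate molecules. Over the 5 libraries, the levels spanned between 1.23-fold for Bid and 2.20-fold for Bcl2. The median span of the 10 genes was 0.71 on the log2 scale, beside 0.74 for all genes.

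Levels were compared between genes per kilobase of exon. Mcl1 led in all 5 libraries, at 143 ± 16.9 scaled CPM per kilobase (SD, n = 5), a level above 97.9% of the genes with a length. The pore-forming genes followed, Bax at 45.9 ± 13.8 and Bak1 at 40.0 ± 4.94. Next came Bcl2l1 at 24.9 ± 7.38 and Bid at 18.7 ± 1.67. The other genes lay close together, with Bad at 10.5 ± 3.07, Pmaip1 at 8.45 ± 2.22, Bcl2 at 6.997 ± 2.56, Bbc3 at 6.48 ± 1.27 and Bcl2l11 at 5.74 ± 0.735. The ranges over the 5 tumours did not overlap between Mcl1 and Bax, between Bak1 and Bcl2l1 and between Bid and Bad, and all other neighbours in this order overlapped. Bcl2 was thus the lowest of the 3 survival genes, and its place among Bad, Pmaip1, Bbc3 and Bcl2l11 changed from tumour to tumour. In 30 °C replicate 1 it was the lowest of the 10, and in 30 °C replicate 3 it was the sixth.

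The exons of 5 of the 10 genes overlap another gene in the annotation, and the strand setting of the counting is not given in the sources used here, so these levels are uncertain to that extent. The shared share of the exons was 20.5% for Bad (with Gpr137, opposite strand), 17.7% for Bid (with Bcl2l13, opposite strand), 12.2% for Bax (with Gm45808, same strand) and 6.09% for Bcl2 (with D630008O14Rik, opposite strand). For Bak1 it was 18.2% and 7.35%, with 2 entries of Ggnbp1 on the opposite strand.

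The tumours with the highest levels came from both temperatures for 7 of the 10 genes. For 4 of them (Bcl2, Mcl1, Bcl2l11 and Pmaip1) the 2 highest tumours were 30 °C replicate 3 and 4 °C replicate 1, and for 3 (Bax, Bak1 and Bad) they were 30 °C replicate 1 and 4 °C replicate 2. These 2 pairs were also the 2 highest tumours for 3256 and 3228 of the 16133 genes. For Bcl2l1 and Bbc3 the top pair was 30 °C replicates 1 and 2 (13.2% of all genes), and for Bid it was the 2 tumours at 4 °C (12.2%).

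The libraries differed in how genes of different exon length were represented, a measure chosen after the values had been seen. In 4 °C replicate 2, the 4002 genes with the shortest exons (up to 2.235 kb) had a median log2 deviation from the mean of each gene of 0.23, and the 3999 genes with the longest (from 6.326 kb) one of -0.23. The difference of long minus short was -0.46 in this library and 0.31 in 30 °C replicate 3, with -0.12, 0.11 and 0.17 in 30 °C replicates 1 and 2 and 4 °C replicate 1. In 4 °C replicate 2, Bax (1.576 kb of exon) deviated by 0.62 and Bad (2.558 kb) by 0.56, whereas Bcl2 (9.157 kb) deviated by -0.35 and Bcl2l11 (8.029 kb) by -0.34. Other short genes of the 10 deviated less or the other way, with Bbc3 (2.124 kb) at 0.09 and Pmaip1 (2.732 kb) at -0.14 in the same library. In 30 °C replicate 3, Bcl2 deviated by 0.71 and Bax by -0.25, but Bcl2l1, of intermediate length (4.586 kb), by -0.65, and Pmaip1 by 0.22. The part of exon length in the levels of Bax, Bad, Bcl2 and Bcl2l11 was not tested.

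**Figure D3:**
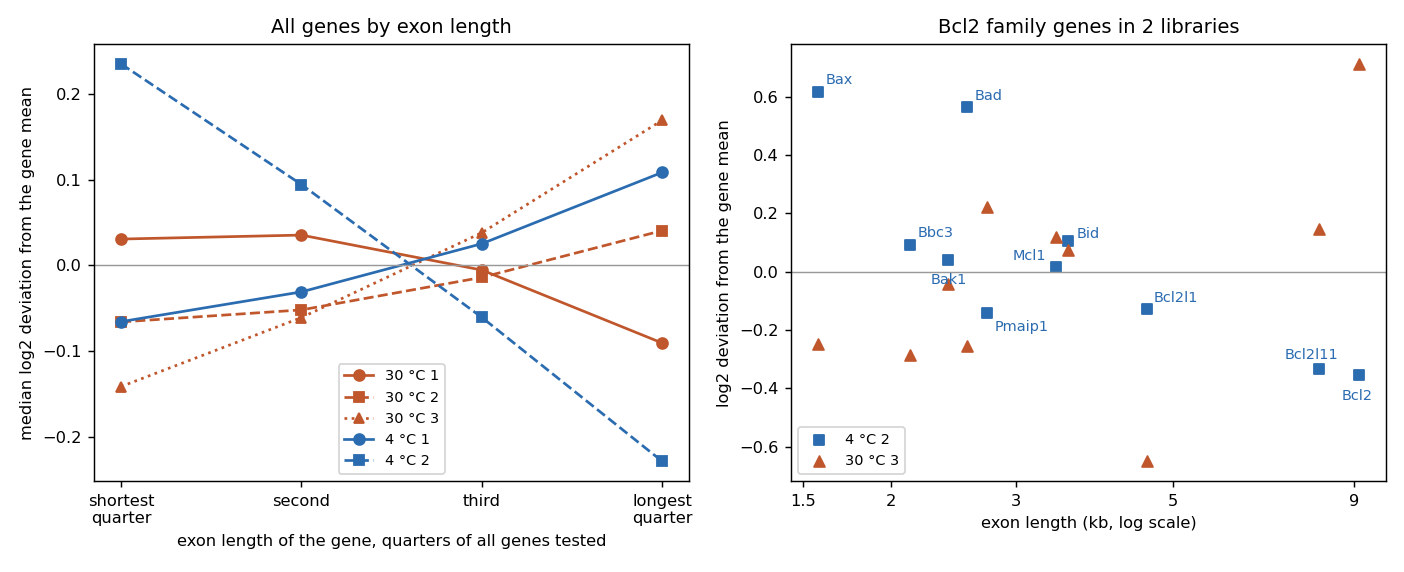
Left, median log2 deviation from the mean of each gene (vertical axis) for all genes in 4 classes of exon length, one line per library. Right, the same deviation of the 10 genes in 4 °C replicate 2 and 30 °C replicate 3 against exon length in kilobases (log axis). The line of 4 °C replicate 2 falls from 0.23 to -0.23 with length, and there Bax and Bad lie above 0 while Bcl2, Bcl2l11 and also the short gene Pmaip1 lie below.

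Ratios within a library compare death and survival genes free of scaling between libraries. Since they also hold the exon lengths of both genes, they were compared between tumours only. The ratio of Bax to Bcl2 counts was 1.72, 1.05 and 0.586 at 30 °C and 0.837 and 2.26 at 4 °C. The tumour with the lowest ratio was at 30 °C and the one with the highest at 4 °C, and the groups overlapped. On the log2 scale the means were 0.03 ± 0.78 (SD, n = 3) and 0.46 ± 1.01 (SD, n = 2), and the difference of 0.43 gave p = 0.6 in a two-sided exact permutation test. Each p of this exact permutation test is a share of the 10 splits of 3 tumours against 2. The observed split always counts, so none of these ratios could pass a threshold of 0.05. The difference was -0.28 without 4 °C replicate 2 and 1.15 without 4 °C replicate 1.

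The other ratios to Bcl2 also overlapped between the groups. Bcl2l11 to Bcl2, the activator Bim over the survival gene, was 1.08, 0.876 and 0.505 at 30 °C and 0.656 and 0.759 at 4 °C (log2 difference -0.15, exact permutation p = 0.8). Bcl2l1 to Bcl2 spanned the widest range, with 3.23, 2.89 and 0.696 at 30 °C and 1.39 and 2.11 at 4 °C (log2 difference -0.13, exact permutation p = 1). The ratio was below 1 in 30 °C replicate 3 alone. Mcl1 to Bcl2 was 9.74, 8.16 and 5.27 at 30 °C and 7.46 and 10.3 at 4 °C (log2 difference 0.23, exact permutation p = 0.7). All 4 ratios share the counts of Bcl2 and were lowest in 30 °C replicate 3, where Bcl2 was highest, so they are not independent of each other.

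**Figure D4:**
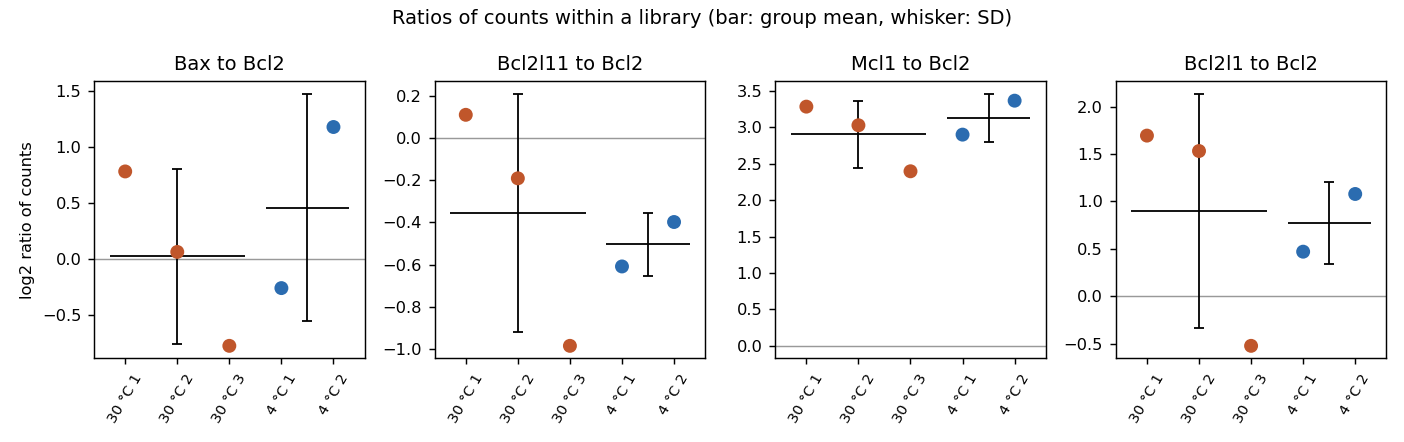
Log2 ratio of counts within each library (vertical axis) for Bax, Bcl2l11, Mcl1 and Bcl2l1 over Bcl2, one point per tumour, with the group mean as a bar and the SD as a whisker. The groups overlap for all 4 ratios, and 30 °C replicate 3 is the lowest point of each.

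The genes around the family were read from 5 lists, in which no gene passed the edgeR test after adjustment. At an unadjusted p under 0.05, 4 of the 63 genes tested passed (Bcl2l13, Bcl2a1d, Bcl2l15 and Foxo3), 1 of them higher and 3 lower at 4 °C. This is 6.35%, beside the 6.76% of all genes given above. From each list, the 3 genes with the smallest p are described.

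**Figure D5:**
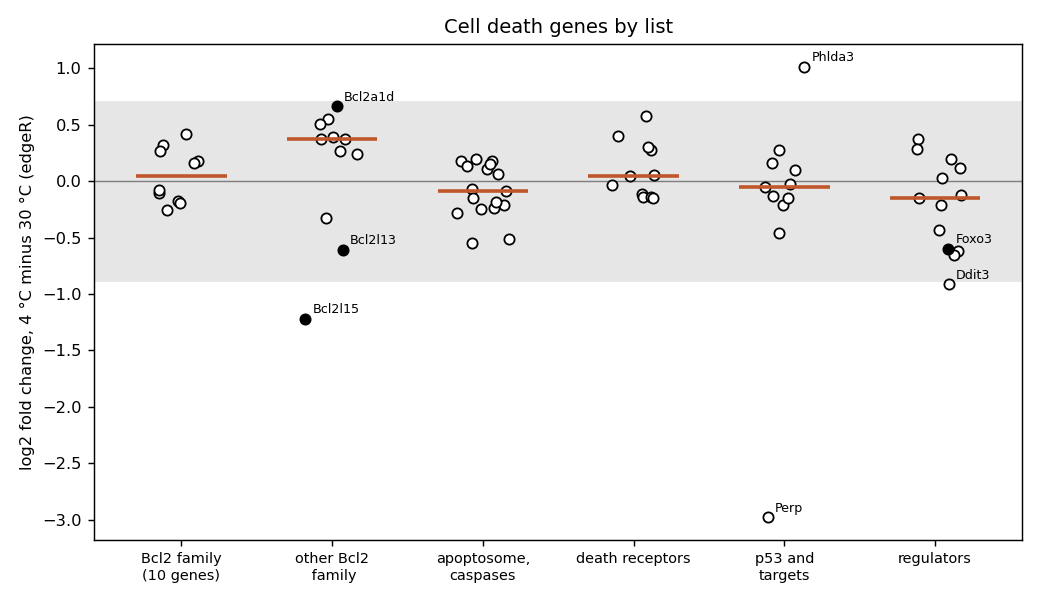
Log2 fold change (4 °C minus 30 °C, vertical axis) from edgeR of each tested gene among the 10 family genes and in the 5 lists around them, one point per gene, filled where the unadjusted p is under 0.05, with the median as a red bar and the middle 90% of all genes in grey. The medians lie between -0.15 and 0.04 except for the other family genes, at 0.37, and the lowest point is Perp at -2.98.

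Of the 13 other Bcl2 family genes, Bcl2l10 and Hrk had 0 counts in every library and 11 were tested. Their differences were above 0 for 8 and below for 3, with a median of 0.37, and the groups did not overlap for 7 of 11 on scaled values and for 5 of 11 on library totals, beside 23.3% and 16.4% of all genes. Bcl2l13, which encodes a mitochondrial member of the family with a role in mitophagy, was at 90.7, 97.4 and 99.4 scaled CPM at 30 °C and at 67.2 and 58.6 at 4 °C. On this scale both tumours at 4 °C lay below all 3 at 30 °C, on library totals the groups overlapped, and the difference was -0.61 (SE 0.17, edgeR adjusted p = 0.689). Bcl2l13 shares 6.91% of its exon length with Bid on the other strand, and the fitted differences of the 2 genes had opposite signs. Bcl2a1d, a copy of the survival gene A1 of blood cells, was at 28.4, 19.8 and 23.4 at 30 °C and at 35.2 and 40.7 at 4 °C (difference 0.67, SE 0.21, edgeR adjusted p = 0.692). The A1 copies are near-identical, so reads may be split between them, and 3 of the 8 genes above 0 are such copies (Bcl2a1a, Bcl2a1b and Bcl2a1d). Bcl2l15 had between 8 and 27 counts per library and a difference of -1.22 (SE 0.46, edgeR adjusted p = 0.709).

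Downstream of the pore, the apoptosome, the caspases and their inhibitors had 7 differences above 0 and 10 below among 17 genes, with a median of -0.09. Apaf1, the scaffold of the apoptosome, was at 58.0, 64.7 and 60.3 scaled CPM at 30 °C and at 52.1 and 33.4 at 4 °C (difference -0.51, SE 0.23, edgeR adjusted p = 0.754), and the difference was -0.24 without 4 °C replicate 2 and -0.87 without 4 °C replicate 1. Its groups did not overlap on the scaled values and did on library totals. Birc5, which encodes survivin, a protein of mitosis and an inhibitor of apoptosis, was at 148, 139 and 86.7 at 30 °C and at 60.9 and 110 at 4 °C (difference -0.54, SE 0.34, edgeR adjusted p = 0.818), and the difference was -0.18 without 4 °C replicate 1 and -1.05 without 4 °C replicate 2. All 8 markers of dividing cells lay above 3 counts in every library, and their sum was between 1490.3 and 2014 scaled CPM at 30 °C and at 959 and 962 at 4 °C. On these values Cdk1 and Cdc20 overlapped between the groups, as Birc5 did, and the other markers of the list were lower at 4 °C without overlap. The part of dividing cells in the level of Birc5 was not tested. Aifm1, which encodes a flavoprotein of the mitochondrial space between the membranes, was at 47.0, 46.3 and 42.6 at 30 °C and at 38.49 and 38.52 at 4 °C (difference -0.23, SE 0.16, edgeR adjusted p = 0.834). Its groups did not overlap on the scaled values and overlapped on library totals.

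Death receptors, their ligands and adaptors had 6 differences above 0 and 5 below, with a median of 0.04. Fas, the receptor that starts the cleavage of Bid through caspase-8, was at 15.3, 12.3 and 10.6 scaled CPM at 30 °C and at 15.8 and 22.2 at 4 °C. The groups met without overlap, and the difference was 0.57 (SE 0.26, edgeR adjusted p = 0.755), with 0.29 when 4 °C replicate 2 was left out. Tradd, an adaptor of the TNF receptor, had a difference of 0.31 (SE 0.21, edgeR adjusted p = 0.834) and Fasl, the ligand of Fas on T cells and natural killer cells, one of 0.40 (SE 0.52, edgeR adjusted p = 0.907). Fasl had between 16 and 54 counts per library. The difference of Tradd was 0.02 without 4 °C replicate 2 and 0.53 without 4 °C replicate 1, and that of Fasl was 0.05 without 30 °C replicate 1, 0.68 without 30 °C replicate 2 and 0.23 without 4 °C replicate 1. The 9 T cell markers, all above 3 counts in every library, summed to between 290 and 463 scaled CPM at 30 °C and to 625 and 664 at 4 °C. Of these markers, Cd4 overlapped between the groups and the others were higher at 4 °C without overlap. The part of T cells in the level of Fasl was not tested.

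Of p53 and its targets, 4 differences were above 0 and 7 below, with a median of -0.05. Trp53 itself was at 137, 121 and 136 scaled CPM at 30 °C and at 143 and 176 at 4 °C (difference 0.28, SE 0.17, edgeR adjusted p = 0.818), and the difference was 0.11 without 4 °C replicate 2 and 0.42 without 4 °C replicate 1. Phlda3, which restrains Akt, was at 20.97, 9.12 and 10.5 at 30 °C and at 14.3 and 40.6 at 4 °C (difference 1.02, SE 0.53, edgeR adjusted p = 0.782), and the difference was 0.07 without 4 °C replicate 2 and 1.58 without 4 °C replicate 1. Perp, a desmosome protein of epithelia, stood at 16.7 scaled CPM in 30 °C replicate 2, the library rich in acinar transcripts, and between 0.479 and 1.22 in the other 4. Its difference of -2.98 (SE 1.64, edgeR adjusted p = 0.798) was -0.19 without that library.

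Among kinases, ubiquitin enzymes, transcription factors and partners known to act on the 10 genes or their proteins, 5 differences were above 0 and 8 below, with a median of -0.15. Foxo3, a transcription factor that drives Bcl2l11 and Bbc3, was at 159, 144 and 124 scaled CPM at 30 °C and at 104 and 84.4 at 4 °C. The groups did not overlap on the scaled values and did on library totals, and the difference was -0.60 (SE 0.19, edgeR adjusted p = 0.692). Pim1, a kinase that phosphorylates Bad, was at 192, 157 and 95.1 at 30 °C and at 93.9 and 93.8 at 4 °C (difference -0.66, SE 0.30, edgeR adjusted p = 0.756). The tumours at 4 °C lay just under the lowest at 30 °C, and without 30 °C replicate 1 the difference was -0.43. Ddit3, which encodes the stress factor Chop, was high in 30 °C replicate 1 alone, at 54.8 scaled CPM, and between 14.1 and 20.1 in the other 4 (difference -0.91, SE 0.57, edgeR adjusted p = 0.818), and its difference was -0.15 when only the other 4 were compared.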

How the data were processed

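RNA from 5 tumours was sequenced, 3 at 30 °C and 2 at 4 °C. The deposited values are whole numbers per gene and were taken as raw counts. The paper describes featureCounts on Gencode vM19, the submitters' processing notes name GRCm38, fastp, HISAT and RSEM without their role, and which tool made the table is not given in the sources used here. The paper states 200 ng RNA for each group. All columns of values were used. Of 54446 entries, 333 without a name (0.0101% to 0.0170% of counts) were left out. In R 4.3.3, low genes were removed by filterByExpr, and the remainder scaled by TMM and compared by the quasi-likelihood F-test of edgeR 4.0.16 (robust, no covariate), with Benjamini-Hochberg adjustment over 16133 genes and a threshold of 0.05. DESeq2 1.42.0, other scalings and filters, the replicate number as a block, removal of acinar genes and leaving out each tumour were the alternatives. Standard errors were derived from the F statistic. Coordinates and exon lengths come from GENCODE M21 on GRCm38 (99.2% of tested genes matched). Ratios were compared by exact permutation over tumours. The 10 genes and all lists were chosen with earlier results of these data known. Named beside the 10 were the 3 genes of smallest p in each list. 1 gene of a list is not reported here and was left out of its list. The scripts were tested on simulated counts.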

Additional observations from a re-analysis of the deposited data

How the results depend on the processing

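None of the 10 genes was called under any of the 15 alternatives. Over all genes, the 0 calls of edgeR became 118 with DESeq2, 8 on library totals without a scaling factor, and 1090 at an unadjusted p under 0.05, and remained 0 whichever tumour was left out (0 to 0). At an unadjusted p, 4 genes of the lists passed, against 0 after adjustment, and 0 to 0 of them were called without single tumours. Genes at an unadjusted p under 0.05 numbered 669 on library totals, 520 without 30 °C replicate 2 and 540 without 4 °C replicate 2, and the share higher at 4 °C was 417 of 1090 in TMM and 558 of 1128 in upper-quartile scaling. Library totals moved the median of all genes from 0.01 to 0.11. With the replicate number as a block (replicate block), 44 genes were called and Bcl2 turned to 0.30. Deviations of tumours of the same number had r = -0.27 for number 1 and 0.25 for number 2, and with 2 tumours at 4 °C, whose deviations mirror each other, this measure cannot settle a pairing, which the labels do not state. In this block the log2 differences of the ratios over Bcl2 were 0.04 for Bax, -0.46 for Bcl2l11, -0.02 for Mcl1 and -0.84 for Bcl2l1. Single tumours turned the sign of 7 of the 10 genes, and the share of all genes that turned was not computed. Leaving out a tumour at 4 °C leaves 1, whose spread is then assumed to be that of the other group. The log2 differences ran from -0.47 to 0.34 for Bcl2, -0.035 to 0.76 for Bax, -0.24 to 0.64 for Bad, -0.18 to 0.054 for Bak1, -0.42 to 0.011 for Bcl2l11, -0.43 to 0.0034 for Bbc3 and -0.043 to 0.60 for Pmaip1. They kept their sign for Bcl2l1 (-0.53 to -0.10), Mcl1 (0.08 to 0.28) and Bid (0.09 to 0.24). On library totals Bak1 was at 0.0072. Without 4 °C replicate 2 the values were 0.18 for Bcl2, -0.035 for Bax, 0.011 for Bcl2l11 and -0.24 for Bad. Without 4 °C replicate 1 they were 0.0034 for Bbc3 and -0.043 for Pmaip1, without 30 °C replicate 1 Bak1 was at 0.054 and without 30 °C replicate 3 Bcl2 was at 0.34. The ratio differences ran from -0.28 to 1.15 for Bax, -0.46 to 0.08 for Bcl2l11, -0.02 to 0.46 for Mcl1 and -0.84 to 0.27 for Bcl2l1. What causes them was not tested.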
